A study of Bos taurus with 20 samples.

Results

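SERPINA14, RBP4, S100G, CRYGS and ANXA2 are 5 genes grouped here as secreted or calcium-binding proteins of the uterus. They were taken as all clones of the 18KO array whose single gene symbol is one of these names, which gave 9 of the 1536 clones of that array and 5 of its 72 named genes. SERPINA14, RBP4, S100G and ANXA2 had 2 clones each and CRYGS had 1. No clone of the companion 18KB array carried any of the names.

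Tissue was endometrium between the caruncles, cut from the caudal part of the ipsilateral uterine horn of Simmental heifers (Deutsches Fleckvieh) on day 18 of pregnancy or of the cycle. The pregnant group comprised 4 heifers aged 17 to 20 months, inseminated with sperm, from whose uterus an intact conceptus was removed before sampling. The control group comprised 6 cyclic heifers aged 18 to 22 months, given the sperm-free supernatant of centrifuged semen of the same bull, in which no conceptus was found. Heifers of both groups had received cloprostenol, a prostaglandin analogue, to synchronise the cycle, and each was 1 animal with its own number. The scalpel samples hold epithelium, stroma and vessels together, so that fewer cells of a type and less RNA per cell cannot be told apart in any value below.

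Uterine glands secrete a mixture of proteins, lipids and sugars on which the unattached conceptus feeds. In ruminants SERPINA14, the uterine milk protein of the serpin family of protease inhibitors, is a well-known component. RBP4 carries retinol, the alcohol form of vitamin A. S100G, also called calbindin-D9k, buffers calcium in the cytoplasm of epithelia and responds to steroid hormones in the uterus. ANXA2, an annexin, binds membrane phospholipids when calcium is present, and CRYGS is a crystallin best known as a structural protein of the eye lens.

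The 18KO array carries PCR products of a subtracted library enriched for transcripts more abundant in controls, and it was hybridised with cDNA made from each animal's RNA and labelled with a radioactive phosphorus isotope. Values are spot intensities in arbitrary units. Those of different clones are not compared with each other, and are summed only for cell type markers. The medians of the 10 columns ran from 1.67 in pregnant 448 to 3.90 in control 449. The array of pregnant 316 was hybridised later than the others, per the labels, next to a pair of the other samples, and joined to the data set through its ratios to that pair. The lowest gene value in any animal was 0.59 for epithelial and 0.47 for stromal markers, against 0.37 for the 10th percentile of the array. This covers the markers that carry a name on this array (2 of 15 and 6 of 11 listed markers). Precision is limited by the number of animals.

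The comparison asked which of these transcripts differed between pregnant and cyclic endometrium. RBP4, S100G and ANXA2 were lower in each of the 4 pregnant animals than in any of the 6 controls, by 2.40-fold, 2.65-fold and 2.24-fold. SERPINA14 was lower on average, by 2.58-fold, but ranged so widely among controls that the groups overlapped. CRYGS lay in the opposite direction, 2.70-fold higher on average in pregnant animals, again with overlap. Differences were tested with limma on the log2 scale across all 1471 features of the array, a feature being a named gene (the mean log2 value of its clones) or a clone without a single name. With Benjamini-Hochberg adjustment over all features, the call required both a fold of 2 or more and an adjusted p below 0.01, which 70 features met (4.76%, or 57 lower and 13 higher in pregnant animals).

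By that rule limma called 0 of the 5 genes. RBP4, S100G and ANXA2 were lower with adjusted p-values under 0.05, as 9.52% of all features were, and 4 of the 5 had unadjusted p-values under 0.05, as 27.5% of all features did. Groups without overlap and with pregnant animals lower, the pattern of these 3 genes, were found in 9.59% of all features and in 62.5% of the 72 named genes. The median log2 fold change, pregnant minus control, was -1.26 for the 5 genes, -1.34 for the named genes and -0.02 for all features. Named genes are no neutral reference, because clones were sequenced, and so named, mostly after they had differed between these same animals. Adjusted over the named genes alone, RBP4, S100G and ANXA2 would be called lower, as 66.7% of named genes were.

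**Figure D1:**
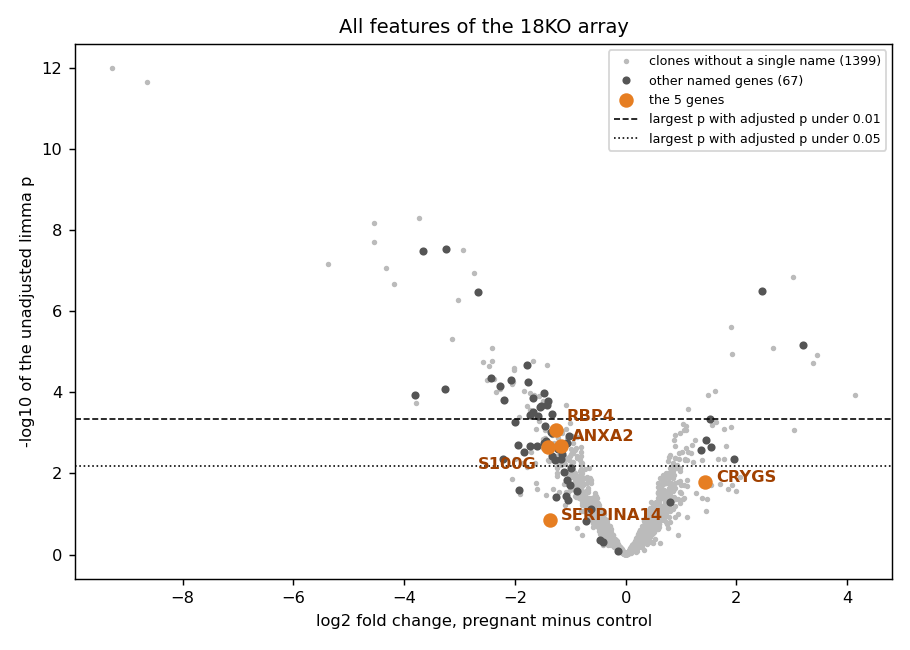
Log2 fold change (x axis, pregnant minus control, 4 against 6 animals) against -log10 of the unadjusted limma p (y axis) for the 1471 features of the 18KO array; grey points are clones without a single name, dark points other named genes, orange points the 5 genes. RBP4, S100G and ANXA2 lie between the lines for adjusted p-values of 0.05 and 0.01, and SERPINA14 and CRYGS lie below both lines.

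RBP4 is the carrier that brings retinol from stores to tissues and is also made in the uterus. Its geometric mean intensity over 2 clones was 2.46 in pregnant 316, 3.57 in pregnant 426, 3.45 in pregnant 447 and 2.19 in pregnant 448. In controls the lowest value was 4.93 (control 427), the median 5.93 and the highest 12.1 (control 449). The pregnant animals spanned 1.63-fold and the controls 2.45-fold, or 1.84-fold without control 449. All pregnant animals lay under the lowest control, and controls 434 (9.07) and 449 were the highest. The log2 fold change was -1.26 ± 0.30 (SE), with a limma adjusted p of 0.0145. A two-sided exact permutation test over the 210 splits of the animals gave p = 0.00952, the smallest it can give. Any gene whose groups do not overlap gives this value. For RBP4, S100G and ANXA2 it therefore restates the separation and is no further support.

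The clones of RBP4 gave like differences. In the first clone pregnant animals had 1.38 to 2.47 and controls 3.08 to 5.56, a log2 fold change of -1.18 ± 0.26. This clone, with an adjusted p of 0.0088 over all 1536 clones, was the only one of the 9 to be called, where 6.32% of all clones were called lower. In the second clone the ranges were 2.88 to 6.78 and 7.18 to 26.25 (-1.35 ± 0.37, limma adjusted p = 0.0231). Across the 10 animals, with group means removed, the clones correlated at r = 0.69, or 0.54 without control 449; both share the RNA and the hybridisation of an animal.

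S100G binds calcium through EF-hand loops. Its geometric mean intensity was 8.54 in pregnant 316, 7.84 in pregnant 426, 6.52 in pregnant 447 and 6.42 in pregnant 448. Controls had a lowest value of 11.9 (control 434), a median of 16.6 and a highest of 53.0 (control 449). All 4 pregnant animals stayed within 1.33-fold of each other while controls spanned 4.45-fold, or 1.99-fold without control 449, and the groups did not overlap. The log2 fold change was -1.40 ± 0.38 (limma adjusted p = 0.0259, two-sided exact permutation p = 0.00952).

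Both clones of S100G also separated the groups. In the first clone, pregnant animals had 5.46 to 10.1 and controls 14.51 to 68.57. The second clone had a narrower gap, with 8.1 as the highest pregnant value (316) and 8.34 as the lowest control value (434). Their log2 fold changes were -1.57 ± 0.40 and -1.24 ± 0.39, and with group means removed they correlated at r = 0.77, or 0.31 without control 449.

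ANXA2 links membranes to the actin skeleton. Its geometric mean intensity was 8.26 in pregnant 316, 7.56 in pregnant 426, 10.4 in pregnant 447 and 6.64 in pregnant 448. Controls ran from 12.4 (control 427) over a median of 16.7 to 37.4 (control 449). Every pregnant value was again under the lowest control value, and control 449 was again the highest. The log2 fold change was -1.16 ± 0.31 (limma adjusted p = 0.0253, two-sided exact permutation p = 0.00952), with -1.02 ± 0.33 in the first clone and -1.30 ± 0.34 in the second. With group means removed its clones correlated at r = 0.60, or 0.10 without control 449. In the first clone the gap was small, with 10.37 in pregnant 447 and 10.95 in control 427.

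SERPINA14 varied widely among controls, with the largest standard deviation of the 72 named genes. Its geometric mean intensity was 1.48 in control 434, 6.68 in control 404, 8.52 in control 440, 29.2 in control 427, 42.7 in control 330 and 85.5 in control 449, a 57.9-fold range. The range was 28.9-fold without control 449 and 12.8-fold without control 434, and its standard deviation then ranked 2 and 4 among the named genes. In pregnant animals it was 5.45 (316), 8.53 (426), 2.61 (447) and 7.99 (448), a 3.27-fold range. Controls thus held both the lowest and the highest value, and 3 of the 6 lay above every pregnant animal. The standard deviation of log2 values was 2.13 in controls (n = 6) and 0.78 in pregnant animals (n = 4), against medians of 0.67 and 0.41 over the named genes.

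Both clones of SERPINA14 put the animals in nearly the same positions. The first clone had 0.56 in control 434 and 23.8 in control 449, the second 3.89 and 307.02 in the same animals. With group means removed the clones correlated at r = 0.97, or 0.98 without control 449, the highest of the 4 genes with a pair of clones. Control 449 had the highest column median, but relative to its column median SERPINA14 was still 5.35 log2 units higher in control 449 than in control 434. The log2 fold change was -1.37 ± 0.88, with a 95% interval from -3.27 to 0.53, a limma adjusted p of 0.337 and a two-sided exact permutation p of 0.295. It was -0.85 without control 449 and -2.03 without control 434, with adjusted p-values of 0.511 and 0.0725.

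CRYGS was dim, with intensities from 0.15 to 1.63 in its single clone, against 0.37 for the 10th percentile of the array. Pregnant animals had 1.63 (316), 1.3 (426), 0.32 (447) and 1.37 (448). Controls had a lowest value of 0.15 (control 427), a median of 0.415 and a highest of 0.79 (control 449). Pregnant animals 316, 426 and 448 lay above every control, and pregnant 447 lay inside the control range. The log2 fold change was 1.43 ± 0.52 (limma adjusted p = 0.0885, two-sided exact permutation p = 0.0667), and 1.97 ± 0.47 with an adjusted p of 0.0192 and no overlap when pregnant 447 was left out. With column medians set equal it was 1.76 (adjusted p = 0.0135), and it was 0.81 with array weights (0.271), 1.03 with a pseudocount at the 5th percentile (0.0764), 1.04 with age as a covariate (0.189) and 1.12 with a floor at the 10th percentile (0.128).

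**Figure D2:**
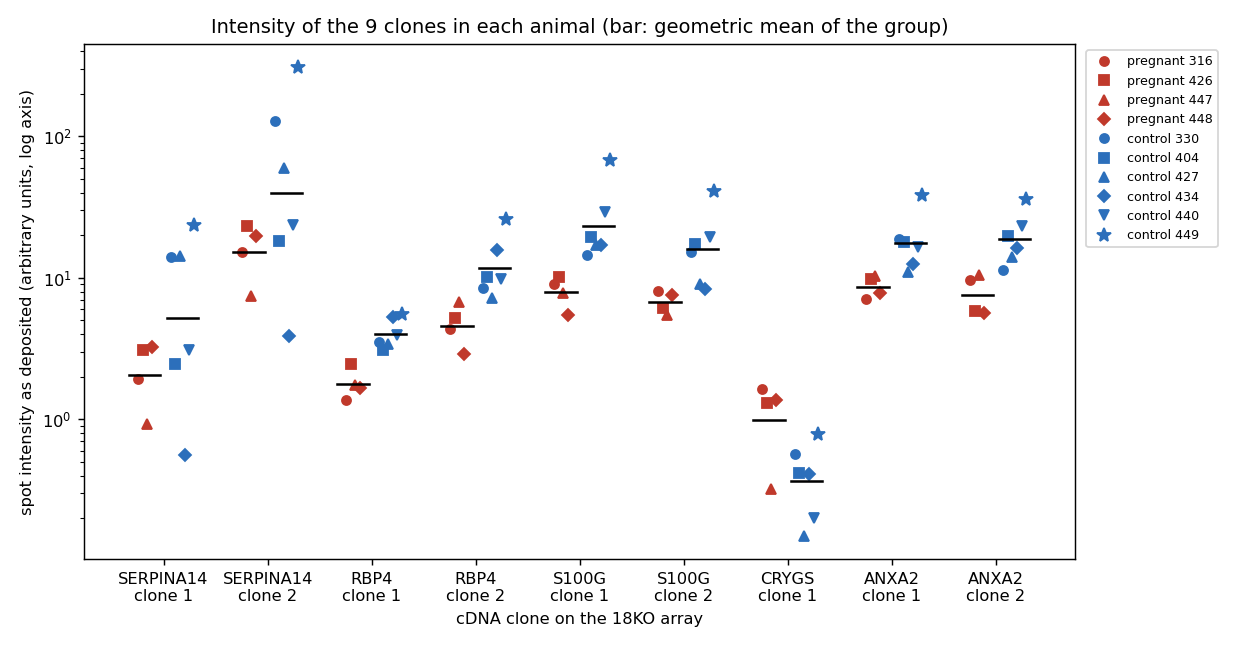
Spot intensity as deposited (y axis, log scale, arbitrary units) of the 9 clones (x axis) in each of 4 pregnant (red) and 6 control (blue) animals; symbols mark animals and bars the geometric mean of a group. In both clones of RBP4, S100G and ANXA2 all red points lie below all blue points, whereas the blue points of SERPINA14 run from below to far above the red ones.

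The scaling of the columns bore on the size of these differences. Setting the column medians equal moved the median log2 fold change of all features from -0.02 to 0.31 and turned the split of called features from 57 lower and 13 higher to 62 lower and 80 higher. It was 70 lower and 52 higher after quantile normalization, and 154 lower and 14 higher with 1 factor per animal from both arrays. RBP4 then had a log2 fold change of -0.93, S100G of -1.07 and ANXA2 of -0.83 with equal column medians, under a median of 0.31 for all features. With 1 factor per animal from both arrays all 3 were called, at -1.50, -1.64 and -1.40, where the median of all features was -0.26. That factor is no neutral scaling, because the column medians of the 18KB array themselves separated the groups. They were 2.495 to 3.18 in pregnant animals and 1.385 to 1.9 in controls. The groups of these 3 genes did not overlap under equal column medians, quantile normalization or 1 factor per animal from both arrays. The share of all features without overlap was not computed for these scalings. Other treatments of low values or of clones could not have made the groups overlap, because both clones of each gene separated them as deposited. Without control 449, the highest control for all 5 genes, the log2 fold changes were -1.10 for RBP4, -1.11 for S100G and -0.95 for ANXA2, with adjusted p-values of 0.0167, 0.0154 and 0.0206. Without pregnant 316, hybridised later, they were -1.19, -1.48 and -1.17 (0.0476, 0.0498 and 0.0586). The number of the 5 genes with an adjusted p under 0.05 dropped from 3 to 1, RBP4 alone, without pregnant 426 or without pregnant 448. S100G also had a limma adjusted p above 0.05 without pregnant 447 (0.0691), without control 440 (0.0516) and with the floor at the 10th percentile (0.0536). Without pregnant 447 the count stayed at 3 because CRYGS came in at 0.0192. ANXA2 was above 0.05 with its brightest clone alone as well (0.0551).

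**Figure D3:**
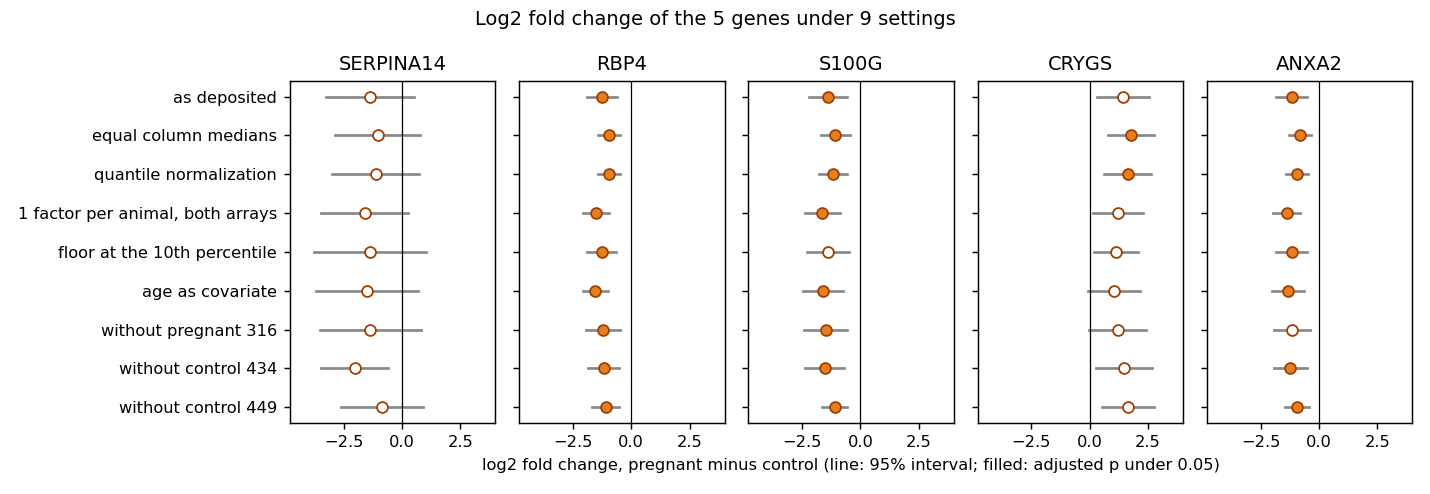
Log2 fold change of the 5 genes (x axis, pregnant minus control; lines are 95% intervals, filled points have an adjusted p under 0.05) under 9 settings (y axis). RBP4, S100G and ANXA2 lie below 0 with their whole interval in each setting shown, and the interval of SERPINA14 spans 0 in each except without control 434.

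Deviations of single animals from their group means were compared between the genes, as a description. S100G and ANXA2 correlated at r = 0.90 (Spearman's rho 0.83) over the 10 animals, RBP4 and ANXA2 at 0.70 (0.52) and RBP4 and S100G at 0.56 (0.42). SERPINA14 had r = -0.01 with RBP4 (rho -0.15), 0.30 with ANXA2 (-0.04) and 0.53 with S100G (0.21). The pairs of S100G, ANXA2 and RBP4 depended on control 449. Without it r was 0.63 for S100G and ANXA2, 0.29 for RBP4 and ANXA2 and -0.13 for RBP4 and S100G, and SERPINA14 had -0.70 with RBP4, -0.40 with ANXA2 and 0.08 with S100G. With column medians set equal the first 3 pairs had 0.78, 0.12 and -0.03. The median over all 2556 pairs of named genes was 0.43, or 0.19 without control 449 and 0.08 with equal column medians. Genes of an animal share its array and column scale. Without control 449 the 2 clones of S100G correlated at 0.31 and those of ANXA2 at 0.10, both below the 0.63 between these genes. Control 434 shows the contrast, being the lowest control for SERPINA14 and S100G and the second highest for RBP4.

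**Figure D4:**
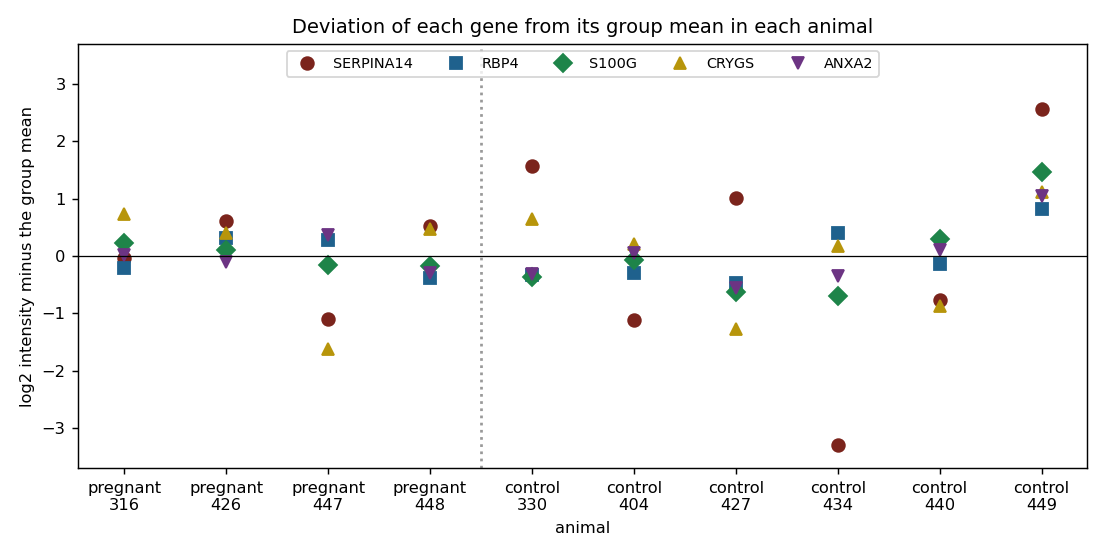
Log2 intensity minus the mean of the group (y axis) for the 5 genes in each of 4 pregnant and 6 control animals (x axis). All 5 genes lie above their mean in control 449, whereas in control 434 SERPINA14 lies far below its mean and RBP4 above.

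Among the other 71 named genes, those whose deviations were most like a member's were picked by Pearson's r over the 10 animals. For RBP4 they were KDELR2, a receptor that returns proteins to the endoplasmic reticulum (r = 0.90), ZYX, the focal adhesion protein zyxin (0.87), and STRA6, the membrane receptor for retinol-loaded RBP4 (0.87). For S100G they were CDCA7L (0.96), the transcription factor SOX4 (0.93) and FADS1, a fatty acid desaturase (0.92), and for ANXA2 CDCA7L (0.94), MAGED1 (0.92) and SEC61A1, which forms the pore for secretory proteins (0.92). In the values as deposited the likeness was lower for SERPINA14, with GADD45G (0.69), TUBB, a tubulin (0.69), and the matrix glycoprotein TNC (0.67). It was also lower for CRYGS, with the hypoxia-inducible factor EPAS1 (0.66), the cyclooxygenase PTGS2 (0.63) and the serotonin receptor HTR4 (0.62). Without control 449 these values were 0.77 to 0.81 for RBP4, 0.62 to 0.84 for S100G, 0.70 to 0.80 for ANXA2, 0.48 to 0.52 for SERPINA14 and 0.52 to 0.61 for CRYGS. With equal column medians they were 0.57 to 0.70 for RBP4, 0.82 to 0.94 for S100G and 0.57 to 0.84 for ANXA2. SERPINA14 then had 0.67 to 0.81, no longer lower than RBP4, and CRYGS had 0.54 to 0.57. Over all 10 animals the median r with the other named genes was 0.53 for RBP4, 0.52 for S100G, 0.58 for ANXA2, 0.15 for SERPINA14 and 0.21 for CRYGS.

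Genes of retinoid transport and metabolism, the pathway of RBP4, were all lower in pregnant animals where they carry a name on this array. These were 3 of 20 listed genes, RBP4 included, and their median of -1.26 was the value of RBP4 itself. That is near the median of -1.34 of the 72 named genes, of which 63 were below 0, while all features had -0.02. STRA6 fell and was called (-1.67 ± 0.35, limma adjusted p = 0.00677). It had 1.75 (316), 1.62 (426), 1.86 (447) and 1.23 (448) in pregnant animals and from 2.69 to 9.89 in controls, and its call was lost in 7 of the 10 fits that left out an animal and with a floor at the 10th percentile. RARRES1, named for its response to retinoid, had a log2 fold change of -1.22 ± 0.33 (adjusted p = 0.0258). Its pregnant animals ranged from 3.34 to 6.26 and its controls from 8.24 to 25.4. The groups of all 3 genes were thus apart with pregnant animals lower, as were those of 62.5% of the 72 named genes. Controls 434 and 449 were the highest for both RBP4 and STRA6, whereas for RARRES1 control 434 was the second lowest control, at 8.91.

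**Figure D5:**
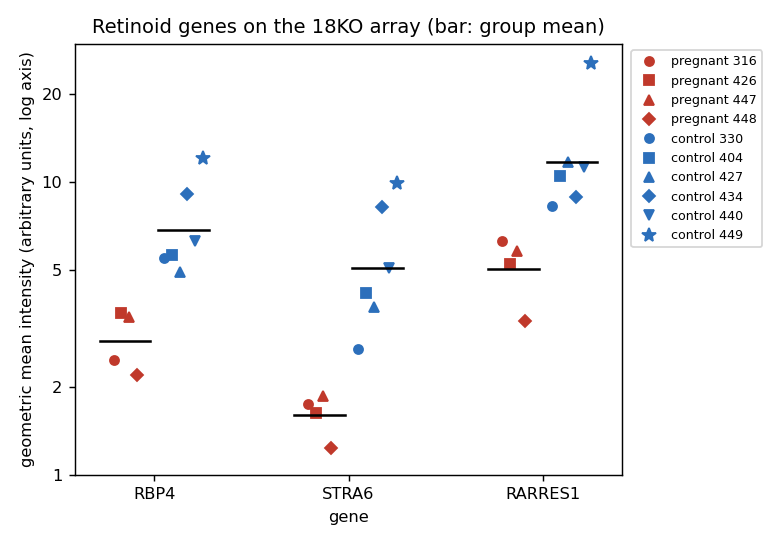
Geometric mean intensity (y axis, log scale, arbitrary units) of RBP4, STRA6 and RARRES1 (x axis) in 4 pregnant (red) and 6 control (blue) animals; bars are group means on the log scale. For each gene all pregnant animals lie under the lowest control, and control 449 is the highest.

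Of 36 listed uterine secretory proteins, 7 had a name on the array, SERPINA14 and RBP4 among them, with a median of -1.16. That is near the median of -1.34 of the 72 named genes, of which 63 were below 0. Of these 7 genes 1 was called lower and 1 higher, against 57 lower and 13 higher of all 1471 features (4.76%). TIMP1, a secreted inhibitor of matrix metalloproteases, fell (-2.19 ± 0.43, limma adjusted p = 0.00434), from 8.27 to 48.9 in controls to 2.42 to 3.03 in pregnant animals, a call lost without any 1 of the 4 pregnant animals and with a floor at the 10th percentile. PENK, the precursor of enkephalin peptides, rose (3.20 ± 0.46, adjusted p = 0.000531), and was called in each of the 24 settings. GRP, the precursor of gastrin-releasing peptide, had -1.16 ± 0.30 (adjusted p = 0.0242), and TIMP3, a related inhibitor bound to the matrix, had -0.87 ± 0.36 (0.124).

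Of 41 listed calcium-binding proteins, 5 had a name, S100G, CRYGS and ANXA2 among them. Their median of -1.16 was the value of ANXA2 itself, near the median of -1.34 of the 72 named genes. Of these 5 listed genes 1 was called, where 4.76% of all features were. That was SPARC, a calcium-binding glycoprotein of the matrix, which fell (-1.53 ± 0.31, limma adjusted p = 0.00525), with 4.10 to 7.89 in pregnant animals and 10.8 to 24.1 in controls. Its call was lost without pregnant 316, 426 or 448 or control 440, with its brightest clone alone and with that floor. FBLN1, the matrix protein fibulin-1, had -1.06 ± 0.38 (adjusted p = 0.0833). Of 12 listed genes of steroid and oxytocin signalling 2 were named. OXTR, the oxytocin receptor, fell (-3.65 ± 0.33, adjusted p = 5.91e-06). Its pregnant animals had 0.0954 to 0.155, below the array's 10th percentile of 0.37, and the log2 fold change was -1.93 with a floor there and -2.13 with the pseudocount. PTGS2 had -0.47 ± 0.60 (0.666).

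Markers of cell types moved with the same contrast. The summed intensity of 6 stroma markers was 69.5 to 275 in pregnant animals and 328 to 1086 in controls. A sum follows its brightest genes, for stroma mainly COL1A1, with 28.8 to 116 in pregnant animals and 162 to 554 in controls. The sum of 2 smooth muscle markers, ACTA2 and MYLK, was 4.81 to 9.33 against 14.7 to 33.3. Of these 8 stroma and smooth muscle genes 5 were called lower and 1 higher. The latter was the stromal transcription factor NR2F2, whose call was lost in 8 of the 10 fits that left out an animal. Over all 1471 features 57 were called lower and 13 higher. Of the 72 named genes, named mostly after they had differed, 63 had a log2 fold change below 0. The 2 named epithelial markers summed to 19.6 to 33.4 in pregnant animals and 7.16 to 20.8 in controls. In pregnant animals nearly all of that sum came from CLDN4, a tight junction protein (18.9 to 32.6). The 2 markers went opposite ways, CLDN4 with 1.96 ± 0.58 (limma adjusted p = 0.0393) and CLDN10 with -1.93 ± 0.77 (0.12). The part of tissue composition in the differences of RBP4, S100G, ANXA2 and CRYGS was not tested. None of the listed endothelial, leukocyte and blood markers carries a name on this array, and of 12 listed trophoblast markers only PTGS2 does. PTGS2, also listed above under steroid and oxytocin signalling, had 0.58 to 7.6 in controls and 1.11 to 1.85 in pregnant animals. It is thus no marker of conceptus tissue here, and the presence of such tissue was not tested.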

How the data were processed

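Endometrial RNA of 10 heifers was measured on the 18KO array. The authors deposited linear spot intensities; per the labels, cDNA was labelled with radioactive phosphorus and both arrays of an animal shared 1 vial, and the background correction and the scaling are details not given in the sources used here. Per the series design text, the authors called clones with SAM (2-fold change, false discovery rate 1%), inspected spots by eye and sequenced called and some additional clones. Clones were named through GEO's annotation of the platform, of uncertain age; 5 of 5 gene identifiers had the same symbol in RefSeq (assembly ARS-UCD2.0). No build is stated for the clones, so no coordinates are printed. Spotted cDNA can also bind transcripts of related genes, which was not tested.

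Intensities were raised to a floor of 0.01, taken to log2 and averaged over clones of a gene; the tables held 0 columns beyond those of the samples. No column repeated another, and columns of a group correlated at 0.94 to 0.98. Groups were compared with lmFit and eBayes of limma 3.58.1 in R 4.3.3, tested on simulated data, over 72 genes and 1399 clones without a single symbol, with Benjamini-Hochberg adjustment. In the simulated data, with noise independent between features, the call rule recovered 41 of 100 changes of 1.25 log2 units. Of 100 changes of 3 log2 units it recovered 97. A gene with a difference near 1.25 that was not called is therefore not shown to be unchanged. Adjusting over all features was preferred to adjusting over named genes because naming followed the outcome. Single genes were also compared by a two-sided exact permutation test (scipy 1.17.1). Genes named are the 5 members, the 3 most like each by residual correlation, up to 4 others with the smallest p from each list, and marker genes; TIMP3 and FBLN1 came in by that rule. Figures used matplotlib 3.10.9. The members and lists were chosen with earlier results of these data known. Correlations and ranges without control 449 or 434, and correlations with equal column medians, were added after seeing the data.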

Additional observations from a re-analysis of the deposited data

Results flagged for a closer look

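Among 26 groups of values checked for a single animal far from the rest (the 9 clones and the means of genes with 2 clones, in pregnant and in control animals), 1 stood out, where chance gives about 1 in 20. It was CRYGS in pregnant animals, with 0.32 in pregnant 447 and 1.3 as the next value; this gap on the log2 scale was 0.861 of the whole range of the group, above the critical value of 0.829 for 4 samples.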

How the results depend on the processing

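The 5 genes kept their direction under each alternative run. With equal column medians 142 features and 175 clones were called, against 70 and 115 as deposited; quantile normalization called 122 features, 1 factor per animal from both arrays 168 features and 239 clones, array weights 120 features, a floor at the 10th percentile (0.37) 69 clones, and an adjusted p under 0.05 with no minimum fold 194 features and 269 clones. Of the 5 genes 1 was called after quantile normalization (S100G, -1.17), 3 with 1 factor per animal (RBP4 -1.50, S100G -1.64, ANXA2 -1.40), 3 adjusted over named genes alone or at an adjusted p under 0.05 (RBP4 -1.26, S100G -1.40, ANXA2 -1.16), 2 with array weights (RBP4 -1.05, S100G -1.33) and 1 with age as a covariate (RBP4 -1.54); the cause was not tested. Leaving out 1 animal at a time gave 33 to 75 features and 58 to 114 clones called, 0 to 1 of the 5 genes called (RBP4, without control 427), 1 to 3 of them with an adjusted p under 0.05, and log2 fold changes of -1.37 to -1.10 for RBP4; the lowest counts of features and clones came without pregnant 448 (33 and 58) and pregnant 426 (43 and 65), and 76 clones were called without pregnant 316. With 1 animal left out S100G ranged from -1.54 to -1.11 and ANXA2 from -1.28 to -0.95. Their limma adjusted p-values then reached 0.0691 and 0.0711. CRYGS could not be fitted without the dimmest 25% of clones, which it belongs to. No paired analysis was possible because pregnant and control animals share no number and no member is on the 18KB array, the one with which these numbers pair the samples. CRYGS was the only one of the 5 genes with values under 0.37, and the first clone of SERPINA14 came down to 0.56 in control 434. Signal over background cannot be judged for any of the 5 genes, because the background correction is not given.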
